A study of Mus musculus with 3 samples.

Results

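The stefin A genes Stfa1, Stfa2, Stfa2l1 and Stfa3 and the cystatin B gene Cstb encode small inhibitors of cysteine proteases. These 5 genes were taken by mouse symbol, through their Ensembl identifiers, from a table of 19723 genes, and all 5 were counted in every library and passed the filter on low counts. RNA was sequenced from 3 pools of sorted cells, 1 library per group, all from BALB/c females of 6 to 8 weeks. The alisertib library held MDSCs (myeloid-derived suppressor cells, myeloid cells of tumours that restrain T cells) pooled from 20 tumours that grew in alisertib-treated mice; alisertib blocks the mitotic kinase Aurora A. The control library held MDSCs pooled from 20 tumours of control mice, which the labels call both untreated and control treated. The bone marrow library held neutrophils pooled from the marrow of 5 wild-type mice. The labels state a sort purity above 90%, while the sort markers, the tumour line, dose and schedule are not given in the sources at hand. The bone marrow group therefore differs from both tumour groups in tissue, in tumour bearing and in how the cells are named, and these cannot be told apart.

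Stefins are the cytosolic branch of the cystatin superfamily: they have no signal peptide and bind the active site of papain-family proteases, such as cathepsins B, H, L and S, tightly and reversibly. A wedge formed by the amino terminus and hairpin loops, the first of which holds the conserved QVVAG stretch, fills the protease's cleft. Cystatin B (also called stefin B) is made in most tissues and guards the cytosol against cathepsins that leak from lysosomes, and loss of its function in people causes a progressive myoclonus epilepsy. In mice the stefin A gene has been duplicated into a cluster, and stefin A transcripts are known from neutrophils and inflamed tissue.

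The reading frame around the first hairpin loop shows how the members relate to each other, and is given for the members and for the cluster copy Gm5416, whose ratio of alisertib to control lay on the other side of 1. Capitals mark the codons of the loop, and the sequence comes from GENCODE M21 transcripts, read 5′ to 3′ on the coding strand.
Stfa1: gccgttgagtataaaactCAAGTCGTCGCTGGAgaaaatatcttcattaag
Stfa2: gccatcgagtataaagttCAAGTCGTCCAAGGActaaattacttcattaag
Stfa2l1: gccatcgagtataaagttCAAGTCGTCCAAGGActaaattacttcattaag
Stfa3: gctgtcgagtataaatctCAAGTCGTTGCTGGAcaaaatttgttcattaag
Cstb: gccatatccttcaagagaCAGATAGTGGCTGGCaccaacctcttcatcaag
Gm5416: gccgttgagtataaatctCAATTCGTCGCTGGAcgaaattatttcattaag
Stfa2 and Stfa2l1 were identical over this stretch, while Stfa1, Stfa3 and Gm5416 each had their own letters and Cstb stood furthest from the others. Over the whole coding sequence, Stfa2 and Stfa2l1 were 96.4% identical, Stfa2 and Stfa3 80.9%, and Stfa1 and Stfa2 57.2%. Gaps count in the aligned length, and the annotated Stfa1 coding sequence has 384 bases against 309 in Stfa2. The 57.2% is 230 identical bases over 402 aligned positions, so it partly reflects this difference in length. Cstb shared 47.2% of aligned positions with Stfa1, where the same holds, and 52.1% to 56.2% with the other stefin A members.

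The 4 stefin A members lie in a cluster of 11 stefin A genes, 1 of them a pseudogene, that spans 335 kb of chromosome 16 (GRCm38, GENCODE M21), and Cstb is alone on chromosome 10. On the plus strand are Stfa2l1 (ENSMUSG00000059657, chr16:36156811-36161953) and Stfa1 (ENSMUSG00000071562, chr16:36276951-36285373). On the minus strand are Stfa2 (ENSMUSG00000022902, chr16:36403992-36408457) and Stfa3 (ENSMUSG00000054905, chr16:36450537-36455392). Cstb (ENSMUSG00000005054, chr10:78425669-78427622) is on the plus strand. Each has 3 exons in its first annotated transcript, and no other annotated gene overlapped any of the 5.

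The stretches before the start sites are shown because the ratios of the 4 stefin A members lay on the same side of 1 in every comparison. RefSeq promoter windows (GRCm38.p6) held an entry for each of the 4 stefin A members, and the 120 bases before the start were 76.8% to 84.6% identical between them. The windows of Stfa1 and Stfa2 reach into exons annotated by GENCODE and are not printed. Those of Stfa2l1 (chr16:36156691-36156810, plus strand) and Stfa3 (chr16:36455393-36455512, minus strand) are shown with capitals for the runs of letters found in all 4.
Stfa2l1: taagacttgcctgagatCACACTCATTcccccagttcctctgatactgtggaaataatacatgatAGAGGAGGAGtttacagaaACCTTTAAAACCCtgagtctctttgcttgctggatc
Stfa3: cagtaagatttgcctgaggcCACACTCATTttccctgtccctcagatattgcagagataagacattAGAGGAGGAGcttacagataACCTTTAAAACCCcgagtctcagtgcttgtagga
The run ACCTTTAAAACCC began 33, 32, 36 and 34 bases before the start of Stfa1, Stfa2, Stfa2l1 and Stfa3. Searches for runs and motifs used the whole RefSeq windows, which are longer than these 120 bases and reach past the start. This run occurred, on either strand, in 9 of 32851 such windows (0.0274%), and 6 of these were stefin A windows. AGAGGAGGAG occurred in 1.03% and CACACTCATT in 0.113% of all windows. These runs were found by comparing the members, so their rarity elsewhere is a description. The window of Gm5416 held the first run 80 bases before its annotated start and did not hold AGAGGAGGAG. The 120 bases before the start of Gm5416 were 37.3% to 41.9% identical to those of the members. The annotated transcript of Gm5416 begins at the start codon, so its window is not at the same place in the gene as those of the members. The window of the cluster copy Gm5483 held each of these runs, the first beginning 32 bases before its start. Its 120 bases were 76.6% to 80.3% identical to those of the members, while its alisertib to control ratio was 0.804 and not called. No window was found for the cluster copies BC100530 and BC117090. A link between these windows and the ratios was not tested. Of 4 motifs searched on both strands in 8 stefin A windows, the C/EBP motif TTNNGNAA was in 5, among them Stfa1, Stfa2 and Stfa2l1 but not Stfa3, against 40.7% of all windows. The PU.1 motif GAGGAAGT (3.2% of all windows) and the letters TATAAA (13.6%) were in none of the 8. The AP-1 motif TGANTCA (7.81%) was in 1, that of Stfa3, where it lay past the start, at position 30.

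Levels between genes are compared on the deposited FPKM scale, which is per length of gene. In alisertib MDSCs, Stfa2l1 stood highest at 1424 FPKM, followed by Cstb at 1206, Stfa2 at 910, Stfa3 at 140 and Stfa1 at 5.37. In control MDSCs the order was Stfa2l1 at 2498 FPKM, Stfa2 at 2285, Cstb at 1184, Stfa3 at 560.5 and Stfa1 at 9.42. In bone marrow neutrophils it was Stfa2l1 at 286 FPKM, Stfa2 at 70.0, Stfa3 at 58.7, Cstb at 39.4 and Stfa1 at 1.13. Within each library the 95% counting intervals of neighbours in the order did not overlap. Stfa2l1 thus led and Stfa1 came last in all 3 libraries, while Cstb was above Stfa2 with alisertib, below it in control and below both Stfa2 and Stfa3 in bone marrow. Of 23327 genes with an FPKM value, Stfa2l1 ranked 20th in alisertib MDSCs, 15th in control MDSCs and 123rd in bone marrow neutrophils, and Cstb ranked 23rd, 41st and 1205th in the same order of libraries.

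**Figure D1:**
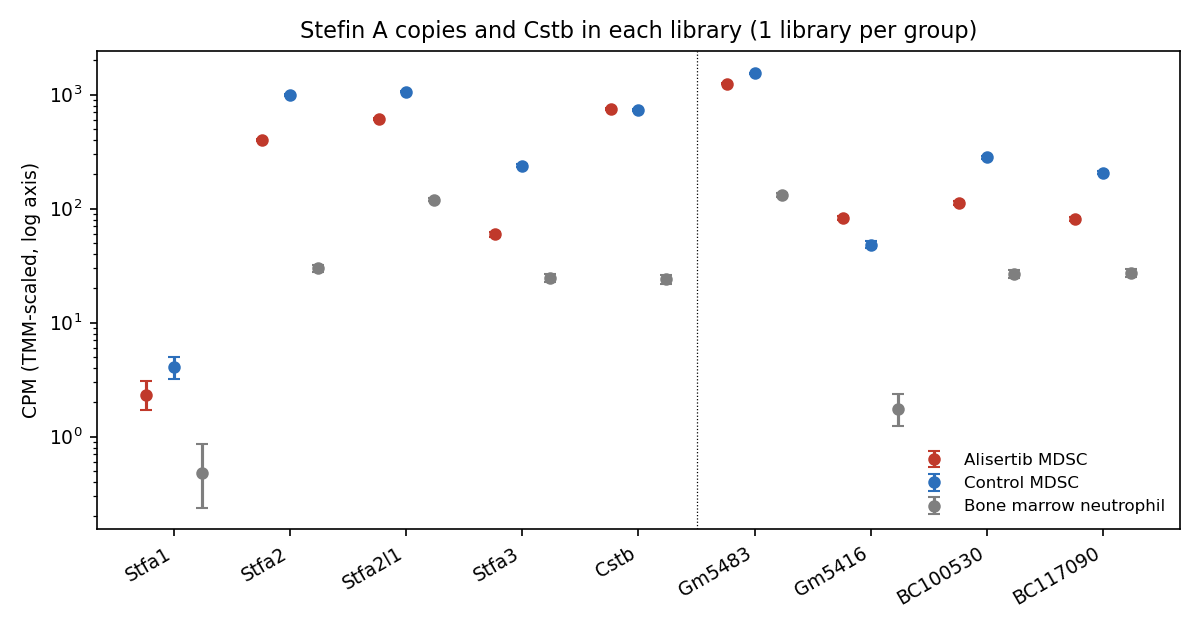
TMM-scaled CPM (counts per 1000000 of the scaled library size, log axis) of the 5 members and, right of the dotted line, 4 other stefin A copies, in alisertib MDSCs (red), control MDSCs (blue) and bone marrow neutrophils (grey), with 95% Poisson intervals that cover counting error only. Each of the 9 genes was lowest in bone marrow, and Gm5416 was the only stefin A copy plotted whose alisertib point lay above its control point.

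The first comparison set MDSCs from treated tumours beside those from control tumours. All 4 stefin A members had lower counts with alisertib, while the Cstb ratio was 1.02. A gene is called when the bound of its 95% interval nearest to 1 is at least 2-fold. Of the 5 members, 2 were called lower, Stfa2 and Stfa3, and 0 higher, where 1.18% of the 13019 genes past the filter were called lower and 1.8% higher. The members' median log2 ratio was -0.81, beside 0.00 for all genes tested. Because each group is 1 library, no ratio has a replicate check, no p-value was computed, and in such bulk samples fewer cells of a type and less RNA per cell cannot be told apart.

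Stfa3 showed the largest difference among the members. It had 1231 counts in alisertib MDSCs against 4631 in control MDSCs, which is 59.3 against 237.1 CPM, or 4.0-fold lower (interval 3.75 to 4.26). Stfa2 had 8232 counts in alisertib MDSCs against 19384 in control MDSCs, 396.6 against 992.3 CPM, and was 2.5-fold lower (2.44 to 2.57). Both ratios were far outside counting error, and Stfa3's interval lay wholly beyond that of Stfa2. Stfa2l1, the near twin of Stfa2, had 12603 counts in alisertib MDSCs against 20742 in control MDSCs, 607.1 against 1062 CPM. It was 1.75-fold lower (1.71 to 1.79), lower beyond counting error but short of the 2-fold bound. Stfa1 had 48 counts in alisertib MDSCs against 79 in control MDSCs, 2.31 against 4.04 CPM, and its 1.74-fold lower level had a wide interval (1.21 to 2.56) that reached across 2-fold. Cstb had 15441 counts in alisertib MDSCs against 14222 in control MDSCs, 743.9 against 728.1 CPM. Its ratio of 1.02 (0.999 to 1.05) included 1, and its log2 value of 0.03 became -0.02 with DESeq2 size factors and 0.30 with total counts.

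**Figure D2:**
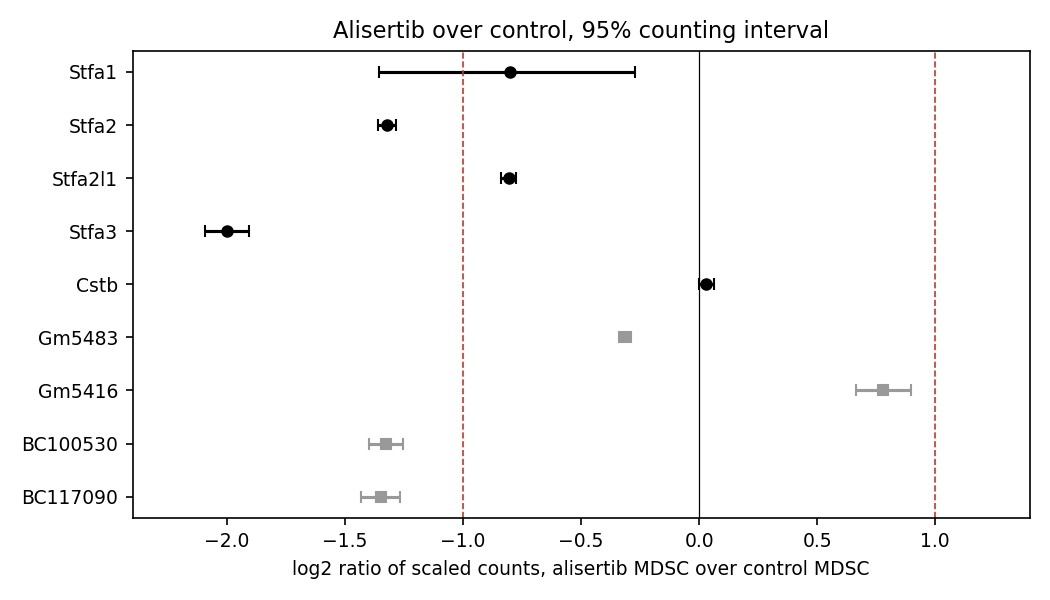
Log2 ratio of scaled counts, alisertib MDSC over control MDSC, for the 5 members (black circles) and 4 other stefin A copies (grey squares), with 95% counting intervals. Dashed lines mark 2-fold in either direction: Stfa3 lay at -2.00, Stfa2, BC100530 and BC117090 near -1.3, Cstb at 0.03 and Gm5416 at 0.78.

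Summed over the 4 stefin A members, alisertib MDSCs had 22114 counts and control MDSCs 44836, which is 1065 against 2295 CPM and 2.16-fold lower (2.12 to 2.19). This call rested on the scaling. With total counts in place of TMM factors the summed log2 ratio was -0.84, against -1.11 with TMM, and it was no longer called, while Stfa2 and Stfa3 kept their calls. Total counts also moved the split of all called genes from 234 higher and 154 lower (60.3% higher) to 422 higher and 83 lower (83.6% higher), and leaving the 100 most abundant genes out of the totals gave 381 higher and 93 lower (80.4%). The median log2 ratio of all genes shifted by 0.27 and 0.22 under these scalings, and by -0.05 with DESeq2 size factors.

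Ratios between members need no scaling, and those given here were chosen after the counts were seen. The Cstb to Stfa3 count ratio was 4.08-fold higher in alisertib than in control MDSCs (3.82 to 4.37). The ratio of Cstb to Stfa2 was 2.56-fold higher (2.47 to 2.65) and that of Cstb to Stfa2l1 1.79-fold higher (1.73 to 1.85). The stefin A members also differed among themselves: Stfa2 over Stfa2l1 was 0.699 times (0.676 to 0.723), and Stfa2 over Stfa3 1.60 times (1.49 to 1.71), its control value.

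All 5 members were far higher in the tumour libraries than in bone marrow neutrophils. In control MDSCs against bone marrow neutrophils 5 of 5 were called higher, where 18.3% of genes were called higher and 22.9% lower, with a median log2 ratio of 3.28 for the members beside -0.14 for all genes. In alisertib MDSCs against bone marrow neutrophils 5 of 5 were also called higher, where 18.7% of genes were called higher and 22.3% lower, with medians of 2.34 and -0.09. Stfa1 was at 0.477 CPM in bone marrow neutrophils and passed the 1 CPM filter only through the tumour libraries, where it was higher. The comparisons share libraries and are not independent of each other. Total counts shifted the median of all genes by -0.24 for control over bone marrow, and totals without the most abundant genes by -0.16; all 5 members stayed called under both, and for alisertib over bone marrow no scaling shifted it by more than 0.06.

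Stfa2 and Cstb showed the widest gap. Stfa2 had 19384 counts in control MDSCs against 691 in bone marrow neutrophils, 33.1-fold higher (30.7 to 35.8), and its 8232 counts in alisertib MDSCs were 13.2-fold above bone marrow (12.3 to 14.3). Cstb had 14222 counts in control MDSCs against 551 in bone marrow neutrophils, 30.5-fold higher (28.0 to 33.3), and in alisertib MDSCs, with 15441 counts, it was 31.1-fold above bone marrow (28.6 to 34.0). The gap between tumour and marrow was thus alike in both tumour libraries for Cstb and narrower with alisertib for Stfa2.

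Stfa2l1 had 20742 counts in control MDSCs against 2764 in bone marrow neutrophils, 8.86-fold higher (8.52 to 9.23), and alisertib MDSCs stood 5.07-fold above bone marrow (4.86 to 5.28). Stfa3 had 4631 counts in control MDSCs against 564 in bone marrow neutrophils, 9.69-fold higher (8.88 to 10.6). In alisertib MDSCs Stfa3 was only 2.42-fold above bone marrow (2.19 to 2.69), the smallest gap of any member in either comparison. Stfa1, with 79 counts in control MDSCs against 11 in bone marrow neutrophils, was 8.16-fold higher (4.49 to 17.7), and alisertib MDSCs stood 4.69-fold above bone marrow (2.48 to 10.4). The summed stefin A members reached 2295 CPM in control MDSCs against 174.7 CPM in bone marrow neutrophils, 13.1-fold higher (12.7 to 13.6).

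The stefin A members took different shares of their summed counts in each library. Stfa2 held 37.2% in alisertib MDSCs (exact binomial interval 36.6 to 37.9), 43.2% in control MDSCs (42.8 to 43.7) and 17.2% in bone marrow neutrophils (16 to 18.4). Stfa2l1 held 57.0% in alisertib MDSCs, 46.3% in control MDSCs and 68.6% in bone marrow neutrophils. Stfa3 held 5.57% in alisertib MDSCs (5.27 to 5.88), 10.3% in control MDSCs (10.1 to 10.6) and 14.0% in bone marrow neutrophils (12.9 to 15.1). Stfa2 thus took its largest share in control MDSCs and its smallest in bone marrow, Stfa2l1 the reverse, and Stfa1 held 0.217%, 0.176% and 0.273% in alisertib MDSCs, control MDSCs and bone marrow neutrophils.

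The other copies of the cluster did not move as one. Of 6 in the table, 4 passed the filter, and Csta1 (0, 2 and 0 counts in alisertib MDSCs, control MDSCs and bone marrow neutrophils) and 2010005H15Rik (1, 5 and 0) did not. With alisertib against control, 2 of the 4 were called lower and 0 higher, where 1.18% of all genes were called lower and 1.8% higher. BC100530 had 2326 counts in alisertib MDSCs against 5489 in control MDSCs, 2.51-fold lower (2.39 to 2.63), and BC117090 had 1681 in alisertib MDSCs against 4026 in control MDSCs, 2.5-fold lower (2.40 to 2.70). Gm5483, the most abundant copy of all at 2908 FPKM in alisertib MDSCs and 3628 FPKM in control MDSCs, was 1.24-fold lower (1.22 to 1.27).

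Gm5416 went the other way. It had 1719 counts in alisertib MDSCs, 942 in control MDSCs and 40 in bone marrow neutrophils, a ratio of alisertib to control of 1.72 (1.59 to 1.86), higher beyond counting error though not called. The Gm5416 to Stfa3 count ratio was 6.87-fold higher in alisertib than in control MDSCs (6.20 to 7.61). Against bone marrow, Gm5416 was 47.2-fold higher in alisertib MDSCs (34.9 to 67.1) and 27.5-fold higher in control MDSCs (20.3 to 39.2). Within all 10 copies, Gm5416 held 3.21% of counts in alisertib MDSCs, 1.10% in control MDSCs and 0.479% in bone marrow neutrophils, and Gm5483 held 48.0%, 35.3% and 36.2% in the same order of libraries. With these copies included, the summed cluster was 1.69-fold lower in alisertib than in control MDSCs, at 2581 against 4373 CPM, which is not called.

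**Figure D3:**
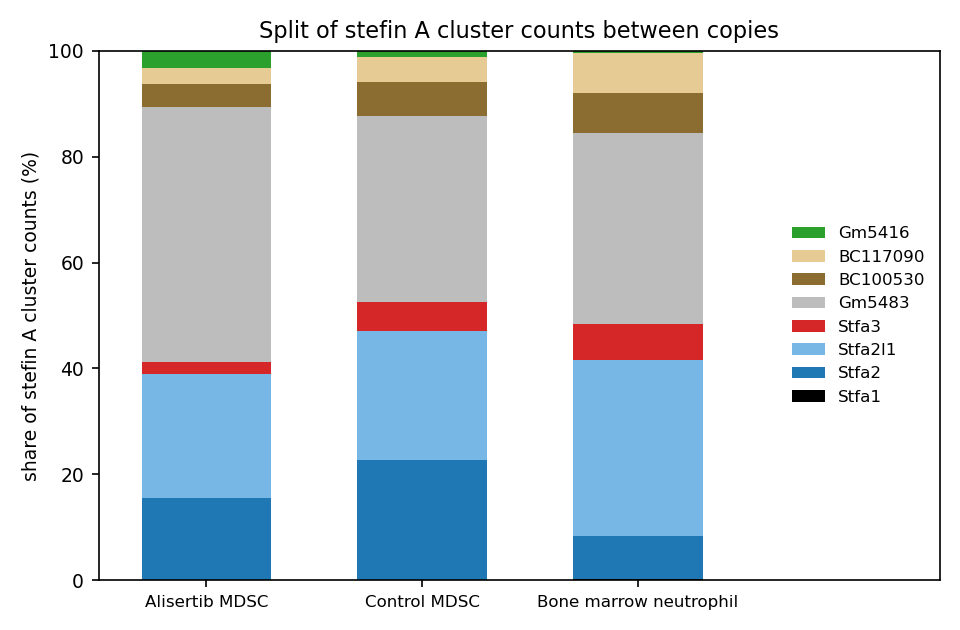
Share of stefin A cluster counts (%) held by each copy in alisertib MDSCs, control MDSCs and bone marrow neutrophils. Bars start at 0 and stack the 8 copies that passed the filter, and the share of Gm5416 (green, top) was 3.21%, 1.10% and 0.479%.

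How far these genes can be told apart depends on reads that fit several copies, and how such reads were counted and how long the reads were is not given in the sources at hand. Every window of 36 bases in the transcripts of Stfa3, Cstb and Gm5416 occurred in no other gene's annotated transcript. For Stfa2 this held for 71.1% of windows at 36 bases, 94.2% at 75 and 100% at 100, and for Stfa2l1 for 63.5%, 92.2% and 100%, with the shared windows lying in each other and in pseudogene transcripts. For Stfa1 it was 60.1% at 36 bases and 98.1% at 100, the shared windows lying mainly in BC100530 and BC117090. For Gm5416 that transcript is the coding part only. At 36 bases such unique windows made up 37.7% of BC100530, 54.3% of BC117090 and 56.7% of Gm5483, and BC100530 and BC117090 share windows with each other. Where reads were short, the splits between Stfa2 and Stfa2l1 and between BC100530 and BC117090 are uncertain. The same holds for the counts of Stfa1 and Gm5483. The part of shared reads in the ratio of any member or copy was not tested. The windows come from the C57BL/6J reference, and the mice were BALB/c. The part of strain differences in the counts was not tested. The FPKM values implied the same gene lengths in all 3 libraries (412 bases for Stfa3, 423 for Stfa2), so they hold the same counts per length and give no second measure of the split. The transcript used for the windows also had 412 bases for Stfa3. For Stfa1, Stfa2 and BC100530 it had 514, 471 and 619 bases, against implied lengths of 418, 423 and 790. The shares of unique windows may therefore differ in the gene models that were counted.

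**Figure D4:**
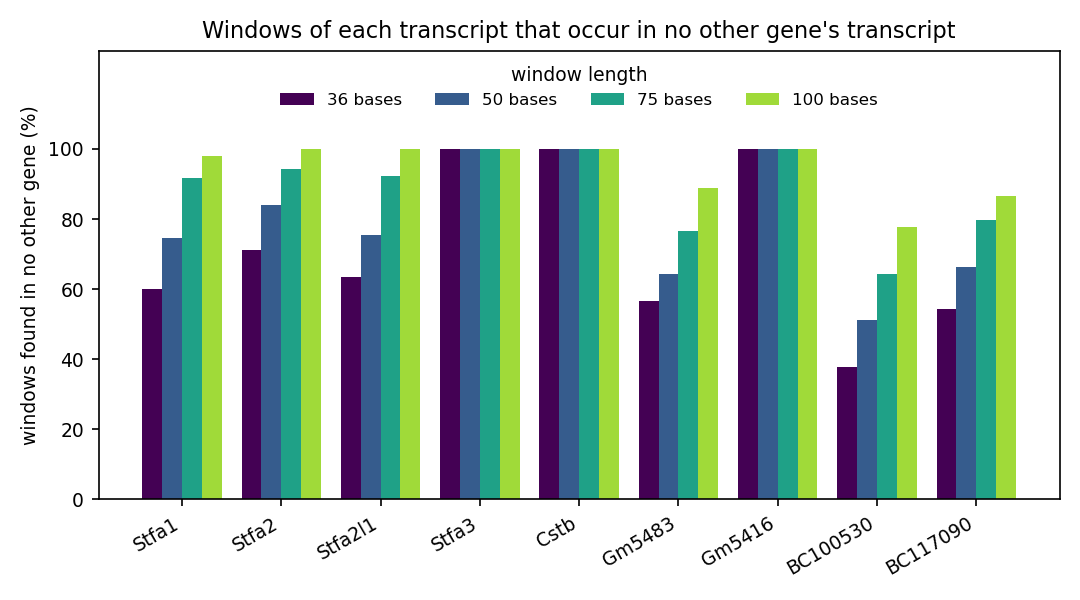
Share of windows (%) of 36, 50, 75 and 100 bases in each gene's first annotated transcript that occur in no transcript of another gene. Stfa3, Cstb and Gm5416 stood at 100% at every length, Stfa2 and Stfa2l1 reached 100% at 100 bases, and BC100530 reached 77.7%.

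Most papain-family cathepsins, the class of proteases that stefins bind, were also higher in tumour MDSCs than in bone marrow neutrophils. They were listed with legumain, a lysosomal cysteine protease of another family that stefins are not known to inhibit, and 10 of the 11 genes passed the filter. With alisertib against control, 0 were called, and their median log2 ratio was 0.02. In control MDSCs against bone marrow neutrophils 7 were called higher and 1 lower, with a median of 2.82, and in alisertib MDSCs against bone marrow neutrophils also 7 and 1, with a median of 3.04. Over all genes, 18.3% were called higher and 22.9% lower in control MDSCs, and 18.7% and 22.3% in alisertib MDSCs. Ctsb, the lysosomal protease cathepsin B, had 50700 counts in alisertib MDSCs, 50132 in control MDSCs and 4736 in bone marrow neutrophils, and was 12.5-fold higher in control MDSCs than in marrow. Ctsl (cathepsin L) was 13.4-fold, Lgmn (legumain) 14.0-fold, Ctsz (cathepsin Z) 10.9-fold and Ctss (cathepsin S, which trims the invariant chain in antigen presentation) 7.22-fold higher in control MDSCs than in bone marrow neutrophils. Ctsh, cathepsin H, was called lower in both tumour libraries, with 1189 counts in alisertib MDSCs, 1115 in control MDSCs and 3297 in bone marrow neutrophils. Ctso, cathepsin O, had 79, 59 and 120 counts in the same order of libraries, ratios to bone marrow of 0.733 with alisertib (0.544 to 0.98) and 0.583 in control (0.418 to 0.799), and was not called.

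**Figure D5:**
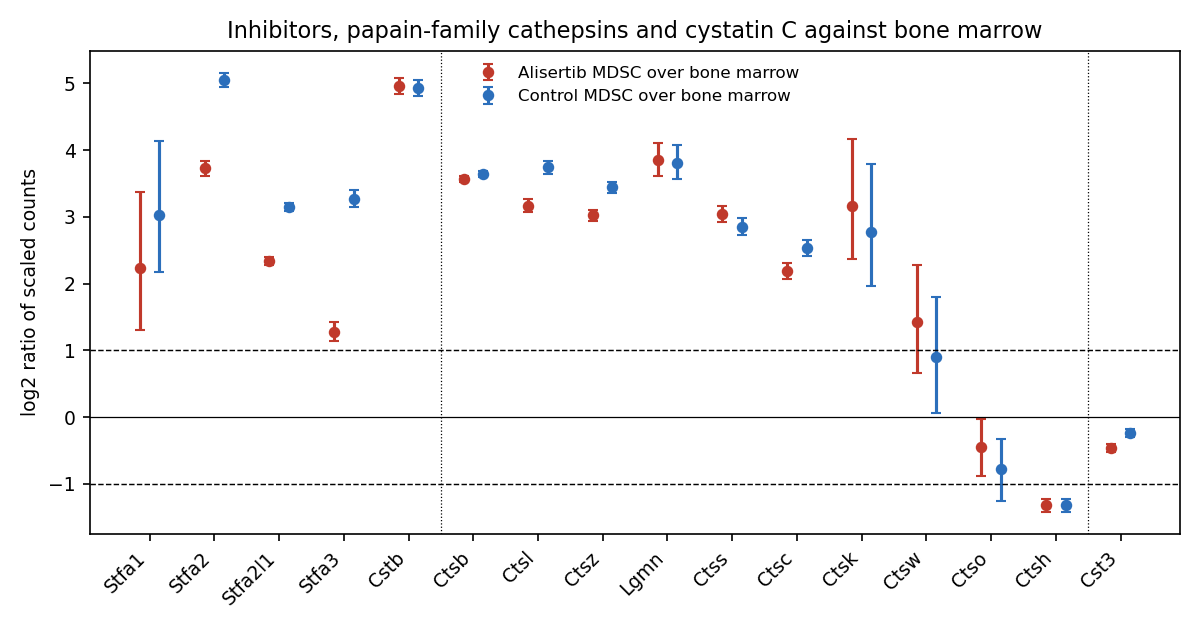
Log2 ratio of scaled counts over bone marrow neutrophils, in alisertib MDSCs (red) and control MDSCs (blue), with 95% counting intervals and dashed lines at 2-fold. Plotted are the 5 members, the 10 genes of the cathepsin list that passed the filter, legumain among them, and Cst3. The red and blue points lay together for Cstb (4.96 and 4.93), while the red point lay below the blue for each stefin A member, and Ctsh lay below the lower dashed line in both.

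Secreted cystatins did not share the members' pattern. Of 17 other genes of the cystatin superfamily, 3 were in the table and 2 passed the filter. Cst3, which encodes the secreted inhibitor cystatin C, had 3874 counts in alisertib MDSCs, 4246 in control MDSCs and 5928 in bone marrow neutrophils and was called in none of the comparisons. Cst7 (cystatin F, a cysteine protease inhibitor made in immune cells) had 17 counts in alisertib MDSCs, 4 in control MDSCs and 30 in bone marrow neutrophils. It was called only as lower in control MDSCs than in bone marrow neutrophils. The list's median log2 ratio was 0.83 for alisertib over control, -1.38 for control over bone marrow and -0.56 for alisertib over bone marrow, each over only these 2 genes.

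Among other protease inhibitors of leukocytes, 16 of 18 were in the table and 15 passed the filter. With alisertib against control 3 were called lower and 0 higher, where 1.18% of all genes were called lower, with a median log2 ratio of -0.14. In control MDSCs against bone marrow neutrophils 4 were called higher and 4 lower (median 0.29), where 18.3% of all genes were called higher and 22.9% lower. In alisertib MDSCs against bone marrow neutrophils 4 were called higher and 5 lower (median 0.29), where 18.7% of all genes were called higher and 22.3% lower. Wfdc17, of the whey acidic protein family, was called in the same direction as Stfa2 and Stfa3 in each comparison. It had 7309 counts in alisertib MDSCs, 20199 in control MDSCs and 324 in bone marrow neutrophils. It was called lower with alisertib (ratio 0.341) and 73.5-fold higher in control MDSCs than in bone marrow. Serpinb1a, an inhibitor of neutrophil serine proteases, had 133 counts in alisertib MDSCs, 409 in control MDSCs and 10809 in bone marrow neutrophils, called lower in each comparison. Wfdc21 was also called lower with alisertib (ratio 0.388). Serpinb8 was 17.2-fold higher in control MDSCs than in bone marrow, and Spint1, an inhibitor of membrane-bound serine proteases, was at least 19.3-fold higher, with 0 counts in bone marrow set to the floor of 3. Serpinb10 had 0 counts in alisertib MDSCs, 4 in control MDSCs and 74 in bone marrow neutrophils.

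The genes with the profile most like a member's across the 3 libraries were picked by distance between centred log2 CPM values among 7327 candidates of at least 10 CPM. For Stfa2l1 the nearest was Jun, an AP-1 subunit, at a distance of 0.0073, with 17136 counts in alisertib MDSCs, 28004 in control MDSCs and 3749 in bone marrow neutrophils, followed by Gpat3 (0.053) and Ddx28 (0.066). For Cstb they were the transcriptional repressor Tgif1 (0.089), the exporter Abcc1 (0.106) and the carbonyl reductase Cbr3 (0.160). For Stfa2 they included the metallothionein Mt2 (0.231) and Trcg1 (0.237), and for Stfa1 the scavenger receptor Msr1 (0.049) and Camk2d (0.050). For Stfa3, with cluster copies and unnamed gene models passed over as for the others, the nearest was Tgm1, the transglutaminase of the keratinocyte envelope, at a distance of 0.494, with 511 counts in alisertib MDSCs, 2545 in control MDSCs and 191 in bone marrow neutrophils, and then Hist1h1e (0.538) and Ero1l (0.567). With 3 libraries, many genes come close to any profile.

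The libraries held 19373087 counts (alisertib), 21959748 (control) and 21987097 (bone marrow), with 17303 to 17622 genes detected. Neutrophil markers were present in all 3, with none of 9 at 0 counts, and summed to 14870, 32610 and 64130 CPM in alisertib MDSCs, control MDSCs and bone marrow neutrophils. Between alisertib and control, 1.18% of all genes past the filter were called lower and 1.8% higher. With alisertib against control, 4 of the 9 were called lower, with ratios of 0.202 for Retnlg, 0.330 for Mmp8, 0.383 for S100a8 and 0.415 for S100a9. The other 5 were not called, at 0.630 for Cxcr2, 0.683 for Itgam, 0.731 for Ly6g, 0.775 for Csf3r and 1.24 for Mmp9. Granule genes of immature neutrophils summed to 961, 3859 and 51120 CPM, with 4 of 8 called lower with alisertib and Ctsg at 0 there. T and NK cell markers summed to 48.7, 16.7 and 142.3 CPM and B cell markers to 43.4, 5.63 and 206.6 CPM, with 6 of 8 and 6 of 7 past the filter called higher with alisertib, Klrb1c at 0 in both tumour libraries and Ncr1 at 0 in the alisertib library. In bone marrow neutrophils Cd3d alone made up 136.2 CPM of the T and NK sum. Of the 8 T and NK markers past the filter, 6 were called higher in alisertib MDSCs than in bone marrow neutrophils, as were 18.7% of all genes. Cd3e and Trbc1 are among the 6 in both comparisons and reached the filter's 1 CPM only in the alisertib library, where they were high. Monocyte and macrophage markers summed to 617, 664 and 508 CPM, with 0 of 10 called between the tumour libraries and none at 0. These sums hide opposite differences from bone marrow neutrophils. In control MDSCs 5 of the 10 were called higher and 2 lower, where 18.3% of all genes were called higher and 22.9% lower. In alisertib MDSCs 6 were called higher and 2 lower, where 18.7% and 22.3% of all genes were. Cd68 was 14.2-fold higher and Ly6c2 18.5-fold lower in control MDSCs than in bone marrow. Of 11 keratinocyte and epithelial markers 5 were in the table, summing to 22.02, 20.5 and 16 CPM, with 0 called between the tumour libraries and Epcam at 0 in bone marrow. Against bone marrow, beside the same shares of all genes, 2 of the 4 past the filter were called higher and 1 lower in control MDSCs. In alisertib MDSCs 2 were called higher and 0 lower. Krt18, 28.7-fold higher in control MDSCs than in bone marrow, and Epcam passed the filter only through the tumour libraries. Of 6 fibroblast markers only Pdgfrb was in the table, at 2, 2 and 12 counts. The part of these cell types in the stefin results was not tested.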

How the data were processed

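The authors deposited 2 tables with 1 column per library, raw counts of reads on each gene and FPKM values, which are scaled by gene length and depth. Per the labels' protocols, the RNA was isolated with Trizol and prepared with NEBNext Ultra reagents. The submitters' processing notes name CASAVA 1.8, STAR 2.5.1b and the builds mm9 and mm10, with no role. The counting tool, annotation, strand setting, read length and treatment of reads that fit several genes are not given in the sources at hand. A gene that overlaps another on the opposite strand, such as BC100530, is therefore uncertain.

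All comparisons used the raw counts. Scaling used TMM factors (edgeR 4.0.16, R 4.3.3), and genes with at least 1 CPM in at least 1 library were kept (13019). Some genes, among them Stfa1, Ctsk, Serpinb8 and Spint1, passed only through tumour libraries, where they were higher than in bone marrow neutrophils. Cst7 passed only through bone marrow neutrophils. Counts of called genes include such genes. Log2 ratios used a prior count of 0.5 per library, and their 95% bounds were derived from exact Clopper-Pearson bounds of 1 library's share in the summed count (scipy 1.17.1). Poisson intervals are exact, and the floor is 3 counts. Ratios between genes are plain odds ratios of the raw counts, with exact conditional intervals (R). Intervals and floors cover counting error only, since PCR copies of a molecule cannot be recognised without molecular identifiers. GENCODE M21 gave symbols for 19648 of 19723 identifiers, and coordinates from GENCODE on GRCm38, not from the deposited tables. Coding sequences were aligned globally (biopython 1.88). The procedure was tested on simulated data.

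The members, lists and rules were chosen with earlier results of these data known. Named are the members, every stefin A cluster copy in the table, up to 5 genes of each other list (called genes with the largest nearest bound, then the most abundant) and the 3 nearest profiles per member, passing over other members and unnamed gene models. Some genes that met this rule are left out of the text. Ctsh, Ctso, Wfdc21 and the cell type markers given by name were added after their values were seen. The cluster copies are named although several are unnamed gene models. Alternatives covered scaling (total counts, DESeq2 1.42.0 size factors, totals without the 100 most abundant genes), the unit, the prior count, the filter, the fold bound and the genes in the sum.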

Additional observations from a re-analysis of the deposited data

How the results depend on the processing

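Of 180 log2 ratios of members and their sum under the alternatives, 171 kept their direction and side of the threshold, among them 118 of 120 over bone marrow. Part of this was fixed in advance and is no sign of stability. The filters leave a gene's ratio and call as they are, and the prior count does not enter the bounds of a call. A changed fold bound leaves the ratio itself as it is. Ratios from FPKM have no interval. Between alisertib and control, the summed stefin A log2 ratio lost its call with total counts (-0.84), with all 10 copies summed (-0.76), without the 100 most abundant genes (-0.89) and with a 3-fold bound (-1.11). A 3-fold bound by its construction also ended the call of Stfa2 (-1.32) there and of Stfa1 (2.23) and Stfa3 (1.28) over bone marrow with alisertib, and a 1.5-fold bound added Stfa2l1 (-0.81). Cstb changed sign with DESeq2 size factors (-0.0225), below its counting interval with TMM. Called genes between alisertib and control numbered 388, against 1257 with a 1.5-fold bound, 121 with a 3-fold bound, 191 with a 10 CPM filter, which tests fewer genes, and 1059 from FPKM plus 0.1, which has no interval. Over bone marrow, 5371 in control and 5344 with alisertib became 3350 and 3356 with a 3-fold bound, and 3520 and 3507 with a 10 CPM filter. Per length, the share of Stfa2 in control was 42.7%. Stfa1 was under 10 CPM in every library and has no value under that filter. Depth limits Stfa1 most: 48, 79 and 11 counts in alisertib MDSCs, control MDSCs and bone marrow neutrophils left a wide interval. With 1 library per group, leaving out a replicate was not possible.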

Other observations

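Next to Gm5416 the annotation has a processed pseudogene, Gm10913, picked here after its counts were seen. It had 74 counts in alisertib MDSCs, 38 in control MDSCs and 0 in bone marrow neutrophils. Its ratio of alisertib to control was 1.82 (1.22 to 2.79), beside 1.72 for Gm5416.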
